A study of Mus musculus with 12 samples.

Results

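Igf1, its receptor Igf1r and the 7 Igf binding protein genes Igfbp1 to Igfbp7 were followed in the developing upper jaw of the mouse. These 9 genes were taken by name from the 53801 genes of each count file, and all 9 had enough counts to be tested among 18365 genes. The tissue was the maxillary prominence, the facial swelling that forms the upper jaw and the palatal shelves, dissected whole from wild type C57BL/6 embryos that received no treatment. Its 4 stages were E10.5, E11.5, E12.5 and E14.5 (E, embryonic day), each with 3 libraries of polyadenylated RNA, so 12 libraries in all. By its title, the study concerns how this tissue develops and is regulated. Each RNA sample came from dissected tissue of 7 littermates, and the labels do not say whether the 3 libraries of a stage came from separate litters, so p-values speak of library-to-library spread, which may be technical in part. The labels describe E14.5 apart from the other stages, so the handling of its samples and the stage cannot be told apart.

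Igf1 is a secreted growth factor that resembles insulin. It binds the receptor tyrosine kinase Igf1r, which signals through Irs adaptors to PI3K, Akt and mTOR and so drives cell growth and survival. Most Igf outside cells is held by Igfbp proteins, which can keep it from the receptor, carry it, or release it when proteases cut them. In the embryo, Igf signalling sets much of the growth of the whole body, the skeleton and the face included.

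The libraries held 28294837 to 33941430 counts in genes. Levels are given as counts-per-million (CPM) of the counts in genes, where 3 counts in a library correspond to 0.0884 to 0.106 CPM. Fold changes came from counts scaled by TMM, a method that takes the scale of a library from the middle of the gene ratios, with both extremes trimmed off. On the log2 scale they differ from the plain CPM ratio by -0.03 for E11.5 against E10.5, by -0.21 for E12.5 against E11.5 and by -0.08 for E14.5 against E12.5. Scaled in that way, the median log2 fold change of all tested genes was -0.04, 0.06 and -0.01 at these steps. Alignments that fell outside annotated genes made up 2.67%, 1.92% and 4.88% of the E10.5 libraries (replicates 1 to 3), 2.16% to 2.42% of E11.5, 5.03% to 5.43% of E12.5 and 5.78% to 6.21% of E14.5. E10.5 replicate 3 thus stood apart from its stage. E12.5 replicate 1 held 42.2 CPM of 10 liver and yolk sac plasma protein genes, against 1.91 CPM in the lowest E12.5 library. The 7 listed mesenchymal markers were present throughout, and no cell type was assigned from them. Their summed CPM lay between 1028 and 1419.5 (E10.5), 1763 and 1927 (E11.5), 1258 and 1581 (E12.5), and 1239.7 and 1345 (E14.5).

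Of the 9 genes, 8 differed among the stages (adjusted p under 0.05, edgeR's quasi-likelihood test), as did 81.6% of all tested genes. The exception in this test was the receptor. With the share of alignments outside genes added as a covariate, 6 genes differed: Igfbp1 (adjusted p = 0.628), Igfbp2 (0.175) and Igfbp4 (0.0744) were lost and Igf1r passed (0.0224). At E11.5 against E10.5, 2 genes were higher (Igf1, Igfbp7) and 1 lower (Igfbp4), where 12.2% of all tested genes were higher and 12.9% lower. At E12.5 against E11.5, 5 were higher (Igfbp1, Igfbp3, Igfbp4, Igfbp5, Igfbp6) and 2 lower (Igf1, Igfbp2), where 27.1% of all genes were higher and 22.2% lower. At E14.5 against E12.5, 5 were higher (Igf1, Igfbp3, Igfbp4, Igfbp6, Igfbp7) and 2 lower (Igf1r, Igfbp5), where 23.0% of all genes were higher and 24.0% lower. The median log2 fold change of the 9 genes was 0.06, 0.44 and 0.33 at the 3 steps. No gene moved the same way at all 3 steps by this test.

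**Figure D1:**
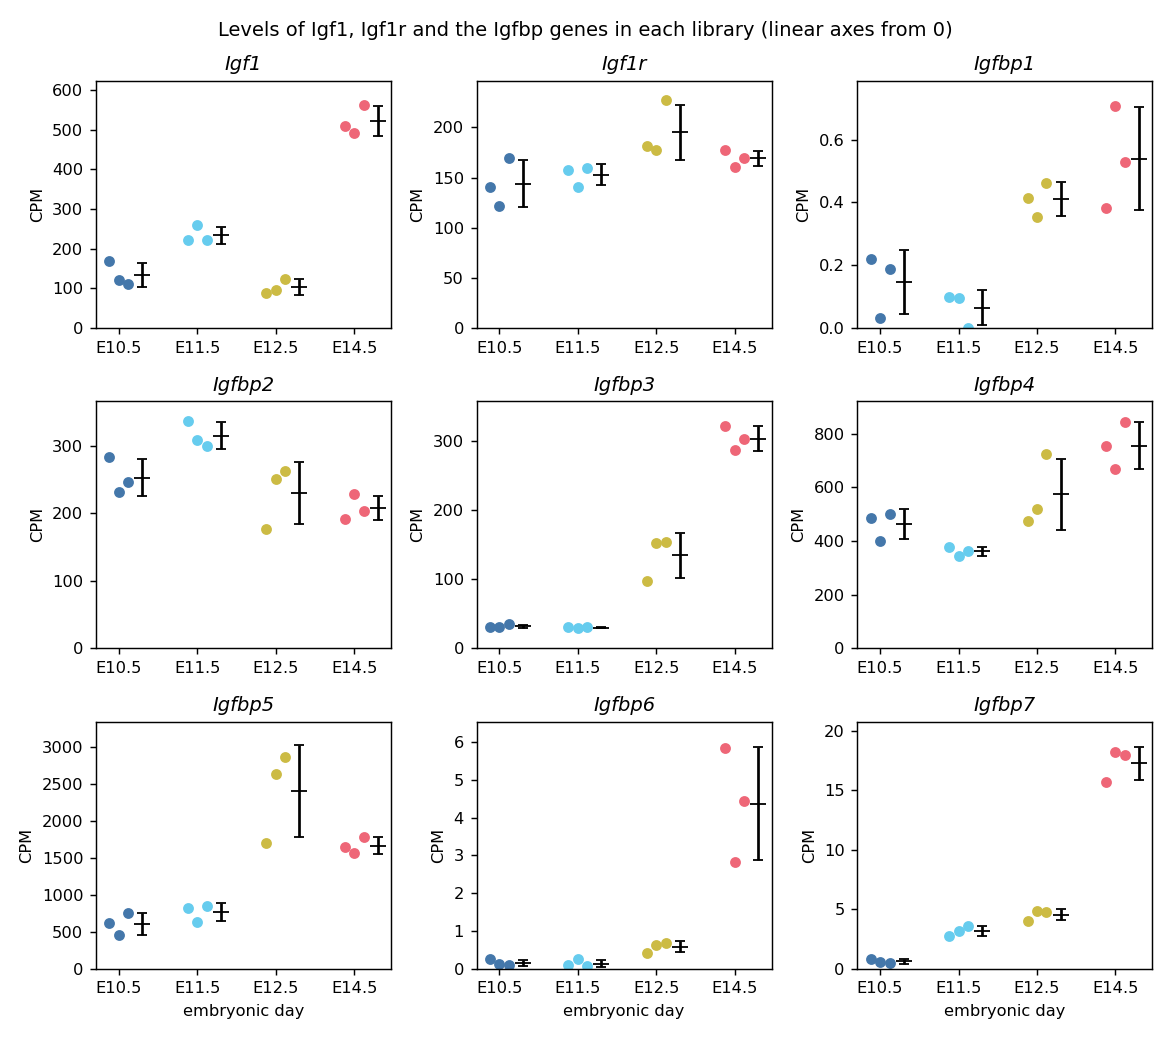
Levels in CPM of the 9 genes in each library (points, 3 per stage, linear axes from 0), with the mean and SD of each stage beside them (bar). Igf1 is lowest at E12.5 and highest at E14.5, Igfbp5 is highest at E12.5, and Igfbp3, Igfbp6 and Igfbp7 are highest at E14.5.

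**Figure D2:**
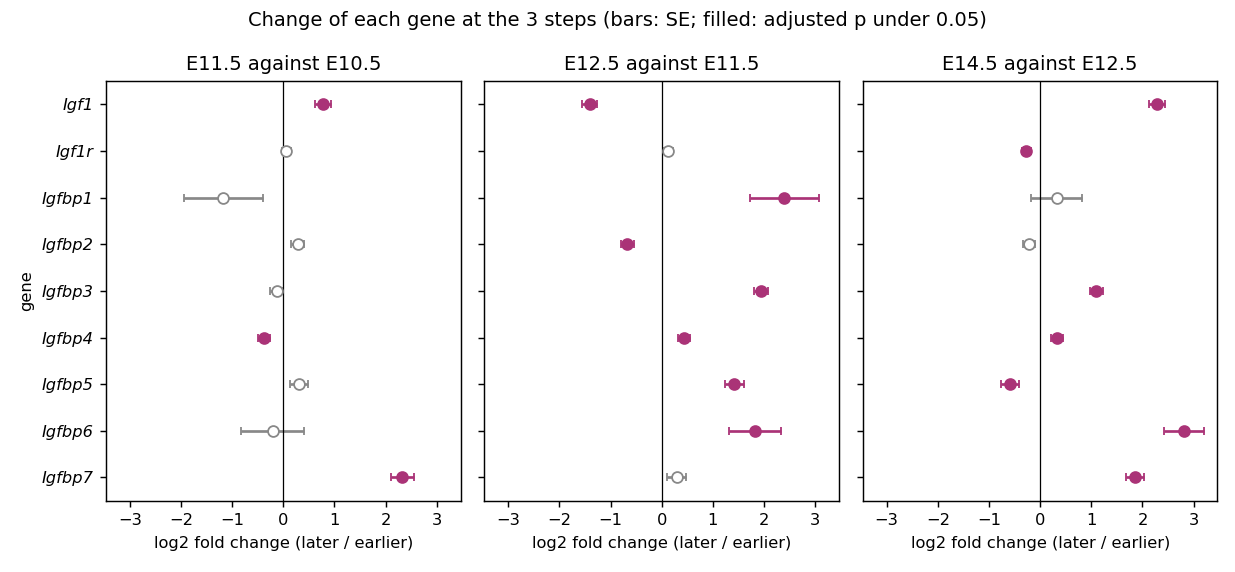
Log2 fold change of each gene, later over earlier stage, with its SE as a bar, at the 3 consecutive steps. Filled points have an adjusted p under 0.05, and Igf1 is the gene whose filled points lie on the right, the left and the right of 0 in turn.

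Igf1, the ligand, changed direction at every step and reached its highest level at E14.5. Its gene lies at chr10:87858265-87937042 on the plus strand (mm10; ENSMUSG00000020053). It measured 168, 121 and 110.4 CPM in the 3 libraries of E10.5 and 223, 259 and 222 CPM at E11.5. At E12.5 the libraries held 87.3, 96.1 and 124 CPM, and at E14.5 510.3, 491 and 564 CPM. All E11.5 libraries thus lay above all of E10.5 and E12.5, and all E14.5 libraries lay above every other library.

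Igf1 was 1.71-fold higher at E11.5 than at E10.5 (log2 fold change 0.78, SE 0.15, adjusted p = 0.00197). It then fell to 103 ± 19.3 CPM at E12.5, against 234 ± 21.2 CPM at E11.5 (SD, n = 3 each), a log2 fold change of -1.41 (SE 0.15, adjusted p = 1.83e-05). At E14.5 it rose 4.85-fold over E12.5, with 522 ± 37.7 CPM at E14.5 against 103 ± 19.3 CPM at E12.5 (log2 fold change 2.28, SE 0.16, adjusted p = 2.53e-07). The stages fell in the order E12.5, E10.5, E11.5 and E14.5, low to high, and the tests separated all neighbours in it. The weakest of these separations was E12.5 below E10.5 (log2 fold change -0.64, adjusted p = 0.00279), where the libraries overlapped. Scaled by library totals without TMM, it had an adjusted p of 0.0568. With the share of alignments outside genes added as a covariate, it had a log2 fold change of -0.33 and an adjusted p of 0.262. The fall at E12.5 from E11.5 had, with that covariate, a log2 fold change of -0.99 and an adjusted p of 0.0561. The mesenchymal marker sum was also highest at E11.5, where 4 of its 7 genes were higher and 1 lower than at E10.5 (all tested genes: 12.2% and 12.9%). At E12.5 against E11.5, 1 was higher and 3 lower (27.1% and 22.2%). At E14.5 against E12.5, where Igf1 rose, 1 was higher and 4 lower (23.0% and 24.0%). The marker sum was 1239.7 to 1345 CPM at E14.5 against 1258 to 1581 CPM at E12.5. The part of these markers in the course of Igf1 was not tested. In whole tissue such as this, fewer cells that make a transcript and less transcript per cell cannot be told apart.

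Igf1r, the receptor, varied less than its ligand. The gene (ENSMUSG00000005533) lies at chr7:67952827-68233668 on the plus strand. Its libraries held 141, 122 and 169 CPM at E10.5, 158, 141 and 159.7 CPM at E11.5, 181, 177 and 227 CPM at E12.5, and 177, 161 and 169 CPM at E14.5. The libraries of E12.5 lay above those of E11.5, and the other consecutive stages overlapped. The joint test of the 4 stages gave an adjusted p of 0.0768. No neighbours in the order of its stages were separated by the tests, with log2 fold changes of 0.06 (SE 0.09, adjusted p = 0.691) for E11.5 against E10.5 and 0.13 (SE 0.09, adjusted p = 0.261) for E12.5 against E11.5.

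One pairwise test of Igf1r passed the threshold, E14.5 against E12.5 (log2 fold change -0.27, SE 0.09, adjusted p = 0.0278), with 169 ± 7.95 CPM at E14.5 against 195 ± 27.7 CPM at E12.5. That call was lost without E12.5 replicate 3 (adjusted p = 0.126), without any of the 3 E14.5 libraries (0.0582 to 0.104) and without TMM (0.191). For E14.5 against E10.5 the scale sets the sign: the plain means were 169 CPM at E14.5 and 144 CPM at E10.5, while the TMM-scaled log2 fold change was -0.08 (adjusted p = 0.434), and 0.23 (adjusted p = 0.0984) without TMM. E14.5 against E11.5 likewise gave -0.14 (adjusted p = 0.187), and 0.15 (0.288) without TMM. The joint test passed without E10.5 replicate 3 (adjusted p = 0.0272), without E12.5 replicate 2 (0.0490), without TMM (0.0197) and with the covariate (0.0224). Without TMM, E12.5 was above E11.5 (log2 fold change 0.35, adjusted p = 0.0287) and E10.5 (0.44, 0.00806). Without E10.5 replicate 3, E12.5 was above E10.5 (log2 fold change 0.27, adjusted p = 0.0288), where all libraries gave 0.19 (0.104).

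The 7 Igfbp genes were compared with each other per length, as transcripts-per-million (TPM, counts per kilobase of exon scaled to the same total in every library). Their summed level was 1079.6 ± 144 TPM at E10.5, 1203 ± 101 TPM at E11.5, 2166 ± 595 TPM at E12.5 and 2420.0 ± 143 TPM at E14.5 (SD, n = 3 each). At E10.5 and E11.5 Igfbp2 held the largest share of this sum, 39.0% and 43.5% on average. Igfbp5 led at E12.5 with 56.7% and at E14.5 with 41.0%, where Igfbp2 held 17.9% and 16.7%. Igfbp3 held 2.93%, 2.46%, 6.14% and 14.4% over the 4 stages. Igfbp4 held 29.6%, 20.9%, 18.7% and 25.2%. Igfbp1, Igfbp6 and Igfbp7 held small shares even at E14.5, at 0.0526%, 0.579% and 2.12%. On the same per-length scale Igf1 stood at 41.1, 72.4, 32.1 and 188 TPM over the stages and Igf1r at 26.1, 27.9, 36.0 and 36.1 TPM. These shares are shares of messenger RNA, and they describe the libraries with no test. They also depend on the length used. Igfbp2 has 1847 exon bases but a longest transcript of 1307 bases, while Igfbp5 has 6006 for both. Shares by the longest transcript were not computed.

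**Figure D3:**
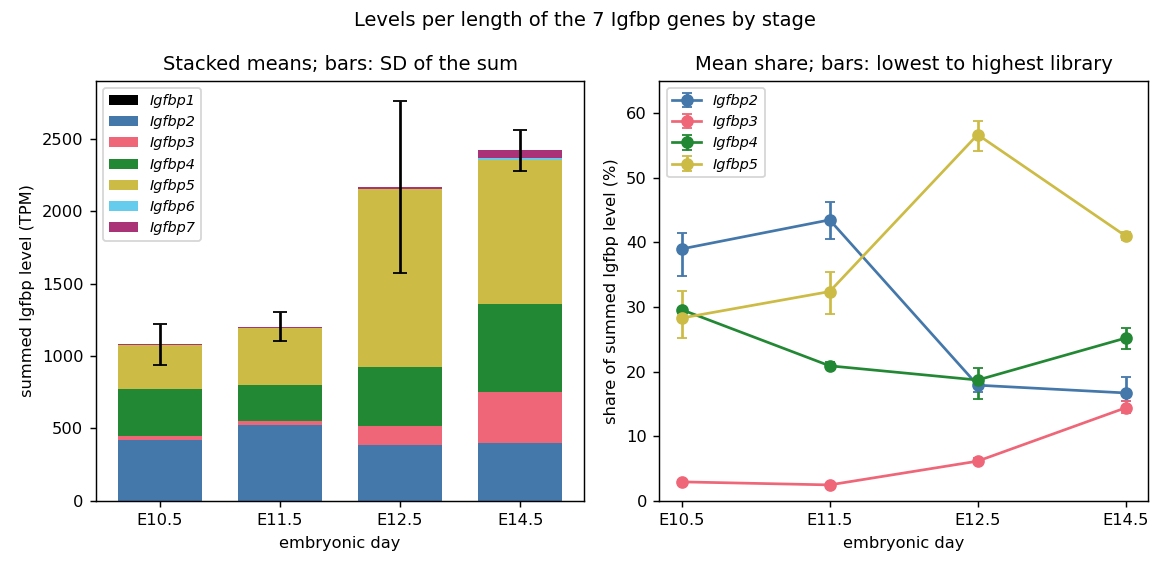
Left, mean levels per length (TPM) of the 7 Igfbp genes stacked by stage, with the SD of their sum over 3 libraries. Right, the mean share of that sum for the 4 most abundant genes, with bars from the lowest to the highest library; Igfbp2 leads at E10.5 and E11.5 and Igfbp5 at E12.5 and E14.5.

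Among these genes are 2 close neighbour pairs that point towards each other. Igfbp1 and Igfbp3 face each other on chromosome 11 with 3539 bp between their ends, and Igfbp2 and Igfbp5 on chromosome 1 with 5457 bp between them. Over the 12 libraries, TMM-scaled log2 CPM of Igfbp2 and Igfbp5 had a Pearson's r of -0.63. Igfbp1 and Igfbp3 had one of 0.79 at unlike levels, 1.26 TPM for Igfbp1 and 348 TPM for Igfbp3 at E14.5. The 120 bases before a RefSeq start of each are shown to set these neighbours side by side (RefSeq, GRCm38.p6, which is mm10; 5′ to 3′ on the gene's strand). Capitals mark CAAAACA in Igfbp1 (chr11:7197667-7197786, plus strand), TATATA in Igfbp3 (chr11:7213924-7214043, minus strand), GGGCGG in Igfbp2 (chr1:72824360-72824479, plus strand) and TATTTAA in Igfbp5 (chr1:72874866-72874985, minus strand).
Igfbp1: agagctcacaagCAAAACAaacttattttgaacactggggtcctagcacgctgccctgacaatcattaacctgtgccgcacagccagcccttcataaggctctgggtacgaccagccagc
Igfbp3: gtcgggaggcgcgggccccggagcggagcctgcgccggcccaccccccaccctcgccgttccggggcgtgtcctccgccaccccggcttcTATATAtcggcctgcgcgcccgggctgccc
Igfbp2: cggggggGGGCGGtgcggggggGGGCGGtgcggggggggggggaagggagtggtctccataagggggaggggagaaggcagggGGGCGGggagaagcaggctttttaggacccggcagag
Igfbp5: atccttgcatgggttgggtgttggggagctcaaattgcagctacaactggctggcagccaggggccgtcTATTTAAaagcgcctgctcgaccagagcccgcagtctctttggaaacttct

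Over 300 bases around the start, 54.3% of the letters were G or C for Igfbp1 and 71.7% for Igfbp3, and 67% for Igfbp2 and 56.3% for Igfbp5. Igfbp2 has a second RefSeq start, not shown, whose window (chr1:72825137-72825436) was 57.3% G or C and held none of the runs searched for. CAAAACA, the core of the insulin response sequence described for IGFBP1 in human, began at -108 in Igfbp1. A TATA-type run began at -30 in Igfbp3 (TATATA) and at -51 in Igfbp5 (TATTTAA), and Igfbp2 held GC boxes (GGGCGG) at -113, -98 and -37. Searched on both strands, CAAAACA was in 6.28% of 32851 mouse promoter windows of 300 bases, TATATA in 5.67%, TATTTAA in 4.51% and GGGCGG in 35.7%. Among the other 5 genes, Igfbp4 held TATAAA at -28 and Igfbp6 at -148 on the other strand, a run found in 13.6% of windows. Igfbp7 held 4 GC boxes and Igf1r 2, and none of the 5 runs was in the window of Igf1. The runs were chosen after the sequences were read, and a match describes letters and no bound factor.

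Igfbp1 (chr11:7197782-7202546, plus strand, ENSMUSG00000020429), an insulin-controlled binding protein made chiefly by liver in the adult, was at the edge of detection. Its libraries held 7, 1 and 6 counts at E10.5, 3, 3 and 0 at E11.5, 13, 11 and 14 at E12.5, and 11, 20 and 18 at E14.5. The count of 0 allows up to 0.0935 CPM in that library. In CPM the means were 0.146 ± 0.101, 0.0648 ± 0.0561, 0.410 ± 0.0547 and 0.540 ± 0.163 over the 4 stages (SD, n = 3 each). All E12.5 and E14.5 libraries lay above all E10.5 and E11.5 libraries. It was higher at E12.5 than at E11.5 (log2 fold change 2.40, SE 0.68, adjusted p = 0.0109) and higher at E14.5 than at E10.5 (1.54, SE 0.57, adjusted p = 0.0274). The second of these was lost without E10.5 replicate 2 (adjusted p = 0.107) and without E14.5 replicate 2 or 3 (0.101 and 0.0549). In E12.5 replicate 1, the library with most liver and yolk sac transcripts (Afp at 28.2 CPM, against 1.22 and 0.429 CPM in the other E12.5 libraries), Igfbp1 was at 0.415 CPM, between the values of its stage.

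Igfbp3 (chr11:7206086-7213923, minus strand, ENSMUSG00000020427), the main Igf carrier of adult serum, rose at the last 2 steps. It measured 30.6, 31.0 and 34.9 CPM at E10.5 and 30.7, 28.8 and 30.9 CPM at E11.5. At E12.5 it measured 97.5, 153 and 154 CPM, and at E14.5 323, 287 and 303 CPM. The first 2 stages overlapped, and every library of E12.5 and of E14.5 lay above all libraries of the stages before. It was 3.84-fold higher at E12.5 than at E11.5 (log2 fold change 1.94, SE 0.13, adjusted p = 4.43e-07) and 2.15-fold higher at E14.5 than at E12.5 (log2 fold change 1.10, SE 0.12, adjusted p = 1.31e-05). Of the 7 calls at the E12.5 step, Igfbp3 was the one that held with that share of outside alignments as a covariate. Over the whole course it was 7.56-fold higher at E14.5 than at E10.5 (log2 fold change 2.92, SE 0.13, adjusted p = 1.01e-09).

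Igfbp2 (chr1:72824503-72852474, plus strand, ENSMUSG00000039323), a binding protein that also carries a site for integrins, was lower at the later stages. Its libraries held 283, 231 and 247 CPM at E10.5 and 337, 309 and 299 CPM at E11.5. They held 177, 251 and 262 CPM at E12.5 and 192, 228 and 203 CPM at E14.5. The E11.5 libraries lay above all others, and E12.5 overlapped E10.5 and E14.5. Igfbp2 was lower at E12.5 than at E11.5 (log2 fold change -0.67, SE 0.12, adjusted p = 8.30e-04), with 230.1 ± 45.9 CPM at E12.5 against 315 ± 19.9 CPM at E11.5. It was also lower at E14.5 than at E10.5 (log2 fold change -0.61, SE 0.12, adjusted p = 6.13e-04), a call that was lost without TMM (-0.29, adjusted p = 0.0674). The call for E12.5 below E10.5 (log2 fold change -0.39, adjusted p = 0.0166) was lost without E10.5 replicate 1 (0.0825), without E12.5 replicate 1 (0.0557) and without TMM (0.395). Without E12.5 replicate 1, Igfbp2 was lower at E14.5 than at E12.5 (log2 fold change -0.37, adjusted p = 0.0155), where all libraries gave -0.22 (adjusted p = 0.171), and higher at E11.5 than at E10.5 (0.29, adjusted p = 0.0415), where all libraries gave 0.28 (adjusted p = 0.120).

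Igfbp5 (chr1:72857932-72874884, minus strand, ENSMUSG00000026185), a binding protein that attaches to extracellular matrix and is abundant in bone, had its peak at E12.5. The libraries held 613, 456 and 749.7 CPM at E10.5 and 819, 629 and 849.7 CPM at E11.5. They held 1695, 2639 and 2867 CPM at E12.5 and 1651, 1567 and 1783 CPM at E14.5. Replicate 1 of E12.5 lay among the E14.5 libraries, and the other E12.5 libraries lay above them. Igfbp5 was 2.68-fold higher at E12.5 than at E11.5 (log2 fold change 1.42, SE 0.18, adjusted p = 6.59e-05). It was lower at E14.5 than at E12.5 (log2 fold change -0.59, SE 0.18, adjusted p = 0.0149), with 1667 ± 109 CPM at E14.5 and 2400.3 ± 622 CPM at E12.5. That fall was lost without E12.5 replicate 2 (adjusted p = 0.0522) or replicate 3 (0.0550). At E14.5 it was still above E10.5 (log2 fold change 1.15, SE 0.18, adjusted p = 6.90e-05).

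Igfbp4 (chr11:99041244-99054392, plus strand, ENSMUSG00000017493), known to hold back Igf action until the protease Pappa cuts it, dipped at E11.5 and was highest at E14.5. The libraries held 487, 399 and 501 CPM at E10.5 and 376, 344 and 364 CPM at E11.5. They held 474, 521 and 726 CPM at E12.5 and 753, 668 and 843 CPM at E14.5. The E11.5 libraries lay below all others, and E12.5 overlapped both E10.5 and E14.5. The log2 fold changes at the 3 steps were small: -0.38 (adjusted p = 0.0344), 0.44 (0.00939) and 0.33 (0.0402), each with an SE of 0.12. The E11.5 fall was lost without E10.5 replicate 1 (0.114) or 3 (0.0788), any E11.5 library (0.0733 to 0.125), E14.5 replicate 1 (0.0716) or 3 (0.0610), and TMM (0.100). The E14.5 rise over E12.5 was lost in 9 of the 12 fits that left out 1 library (0.0539 to 0.196), the exceptions being E10.5 replicate 3, E12.5 replicate 3 and E14.5 replicate 2, and the E12.5 rise was lost without E12.5 replicate 3 (0.0548). E14.5 lay above E11.5 by 0.77 on the log2 scale (adjusted p = 8.61e-05).

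Igfbp6 (chr15:102144362-102149511, plus strand, ENSMUSG00000023046), which binds Igf2 more tightly than Igf1, was nearly undetected before E14.5. It had 8, 4 and 3 counts at E10.5, 3, 8 and 2 at E11.5 and 13, 20 and 21 at E12.5. At E14.5 it had 168, 80 and 151 counts, or 5.83, 2.83 and 4.45 CPM. Every E12.5 library lay above the E10.5 and E11.5 libraries, and every E14.5 library above E12.5. The rise at E14.5 over E12.5 was 7.08-fold (log2 fold change 2.82, SE 0.39, adjusted p = 6.95e-05), after one of 3.54-fold at E12.5 over E11.5 (log2 fold change 1.82, SE 0.51, adjusted p = 0.0100). Over the whole course, E14.5 against E10.5 gave a log2 fold change of 4.44 (SE 0.45, adjusted p = 1.27e-06).

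Igfbp7 (chr5:77349240-77408041, minus strand, ENSMUSG00000036256), a related protein that binds Igfs weakly and is well known from blood vessels, rose at the first and at the last step. It measured 0.844, 0.535 and 0.471 CPM at E10.5 and 2.76, 3.22 and 3.61 CPM at E11.5. At E12.5 it measured 3.99, 4.87 and 4.81 CPM, and at E14.5 15.7, 18.2 and 18.0 CPM. No library overlapped one of another stage. It was 5.04-fold higher at E11.5 than at E10.5 (log2 fold change 2.33, SE 0.22, adjusted p = 7.90e-06) and 3.60-fold higher at E14.5 than at E12.5 (log2 fold change 1.85, SE 0.18, adjusted p = 4.76e-06). E12.5 against E11.5 gave 0.29 (SE 0.19, adjusted p = 0.204), and 0.51 (adjusted p = 0.0361) without TMM. From end to end it was 22.2-fold higher at E14.5 than at E10.5 (log2 fold change 4.47, SE 0.22, adjusted p = 1.89e-09). Its gene shares 85 exon bases with Polr2b on the other strand, and the library kit does not mark strand. Polr2b measured 171 ± 11.6 CPM at E14.5 against 277 ± 18.3 CPM at E10.5, and reads on the shared bases cannot be told apart.

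Markers of other cell types moved over the same stages, and their part in the course of Igfbp7 was not tested. The 9 endothelial markers summed to 249 to 374 CPM at E10.5, 169 to 205 CPM at E11.5, 326 to 460.4 CPM at E12.5 and 536 to 630.4 CPM at E14.5. At E11.5 against E10.5, where Igfbp7 rose, 7 of the 9 endothelial markers fell and none rose, and Kdr measured 30.5 CPM at E11.5 against 60.6 CPM at E10.5. Of all tested genes, 12.2% were higher and 12.9% lower at that step. The 8 surface epithelium markers summed to 456 to 557, 654 to 723, 612 to 1139 and 1078 to 1572 CPM over the stages, and 3 were higher and 3 lower at E11.5. Krt5 among them measured 114 CPM at E11.5 against 3.47 CPM at E10.5, and Krt8 43.0 CPM against 90.8 CPM. At E14.5 against E12.5, where Igfbp7 rose again, 2 of the 8 epithelial markers were higher and 4 lower. Of the 9 endothelial markers, 6 were then higher and 1 lower, where 23.0% of all tested genes were higher and 24.0% lower. No endothelial or epithelial marker was at 0 in every library.

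**Figure D4:**
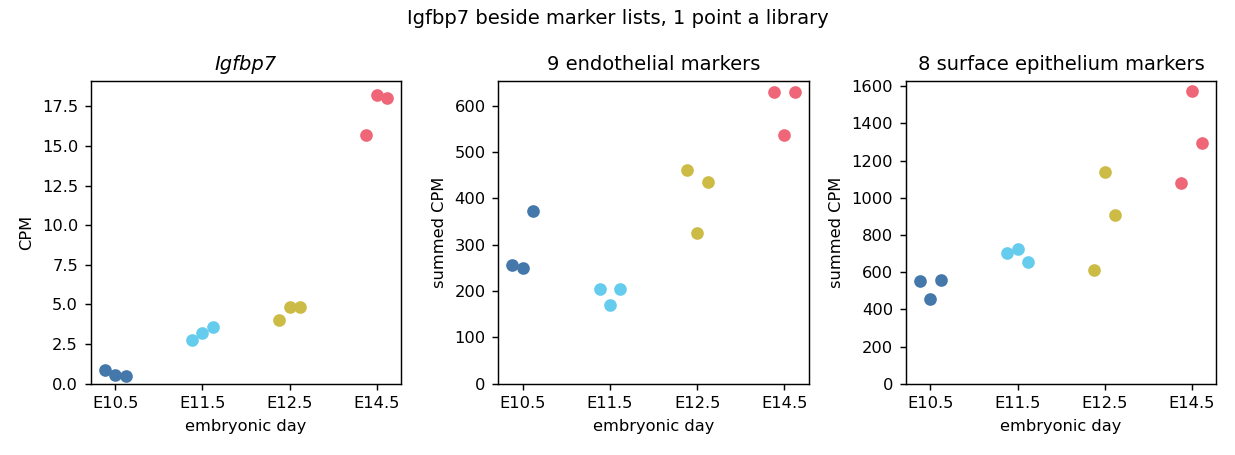
Igfbp7 in CPM (left) and the summed CPM of 9 endothelial (middle) and 8 surface epithelium (right) marker genes, 1 point a library, linear axes from 0. At E11.5 the endothelial sum is at its lowest, 169 to 205 CPM, while Igfbp7 lies at 2.76 to 3.61 CPM, above the 0.471 to 0.844 CPM of E10.5.

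Markers of several other tissues also rose at the later steps, and those of some tissues went both ways. At E12.5 against E11.5, Igfbp3, Igfbp5 and Igfbp6 rose and Igf1 fell, and 27.1% of all tested genes were higher and 22.2% lower. There 10 of 10 skeletal muscle, 8 of 8 leukocyte and 6 of 7 tested pericyte and smooth muscle markers were higher. So were 6 of 7 cartilage and 3 of 7 tested osteoblast markers, and no gene of these lists was called lower. Their summed CPM at E12.5, against E11.5, was 180.3 to 372 against 25.4 to 39.7 for skeletal muscle and 81.0 to 83.9 against 30.2 to 36.9 for leukocytes. It was 209 to 269 against 113 to 125 for pericytes and smooth muscle. For cartilage it was 536 to 824 against 211 to 287, and for osteoblasts 419 to 795 against 276 to 350.3. Col1a1, a collagen gene, made up most of the osteoblast sum, with 523 CPM at E12.5 against 237 CPM at E11.5. On the same list Runx2 (log2 fold change -0.36, adjusted p = 0.200) and Sp7 (-0.10, adjusted p = 0.721) were not called at that step. Skeletal muscle markers (10 genes) summed to 2114 to 2654 CPM at E14.5 against 180.3 to 372 CPM at E12.5, and all 10 were called higher. Osteoblast markers (8 genes) summed to 7815 to 9986 CPM at E14.5 against 419 to 795 CPM at E12.5. Col1a1 averaged 6426 CPM of the E14.5 sum, and all 7 tested osteoblast markers were called higher. Leukocyte markers (8 genes) summed to 197 to 229 CPM at E14.5 against 81.0 to 83.9 CPM at E12.5. Pericyte and smooth muscle markers (8 genes) summed to 583 to 649 CPM at E14.5 against 209 to 269 CPM at E12.5, and 6 of 7 tested were higher. Of all tested genes, 23.0% were higher and 24.0% lower at that step. The cartilage sum was 565 to 1080.1 CPM at E14.5 against 536 to 824 CPM at E12.5, with 4 of 7 markers higher and 1 lower. Neuron markers had 4 of 8 higher and none lower at E12.5, then none higher and 3 lower at E14.5. Erythroid markers had 2 of 7 higher and 1 lower, then 2 and 2, which lie near the shares of all tested genes. The part of these markers in the changes of the 9 genes was not tested.

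Across wider spans the counts were as follows. At E14.5 against E10.5, 7 of the 9 genes were higher and Igfbp2 lower, where 36.6% of all genes were higher and 33.8% lower, and Igf1r was not called. At E14.5 against E11.5 the same genes were called in the same directions, where 37.2% were higher and 32.7% lower. At E12.5 against E10.5, 4 genes (Igfbp3, Igfbp5, Igfbp6, Igfbp7) were higher and 2 (Igf1, Igfbp2) lower, where 28.0% were higher and 25.5% lower. Leaving out 1 library ended some of these calls. Igfbp4 at E14.5 against E10.5 (log2 fold change 0.39, adjusted p = 0.0119) was lost without E10.5 replicate 2 (0.0742) or E14.5 replicate 3 (0.0571), and Igfbp6 at E12.5 against E10.5 (1.61, adjusted p = 0.0146) without E10.5 replicate 3 (0.0544). These spans share libraries with the consecutive steps and are not independent of them. With the share of outside alignments as a covariate, 4 genes (Igf1, Igfbp3, Igfbp6, Igfbp7) were called higher and none lower both at E14.5 against E10.5 and at E14.5 against E11.5. Of all 18365 tested genes, that covariate left 3569 higher and 3897 lower at E14.5 against E10.5, and 1785 and 1663 at E14.5 against E11.5. At E12.5 against E10.5 it left 3 of the 9 genes higher and none lower, Igfbp6 being lost (adjusted p = 0.143), and 2752 higher and 2854 lower over all genes.

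The genes varied together to unequal degrees over the 12 libraries, as Pearson's r of TMM-scaled log2 CPM, which the 4 stages dominate. The r values can differ on plain CPM, the scale of the printed levels, and were not computed there. Igfbp3 and Igfbp6 had the highest r (0.93), and Igfbp2 and Igfbp3 the lowest (-0.86). Igf1 and Igf1r had an r of -0.62. Among 11071 tested protein-coding genes with a mean of at least 5 CPM, the courses most like Igf1 were those of Me1 (r = 0.974), Pde5a (0.951) and E2f2 (0.947). For Igf1r they were Lrfn1 (0.924), Zc3h11a (0.919) and Zfp740 (0.913). For Igfbp1 they were Nr4a2 (0.921), Tmem165 (0.920) and Gnas (0.907), and for Igfbp2 Lrrc14 (0.967), Uqcrc1 (0.954) and Sphk2 (0.953). Igfbp3 was most like Smpd1 (0.995), Rbm24 (0.994) and Ccdc157 (0.991), and Rbm24 measured 1.10, 1.09, 9.75 and 32.1 CPM over the stages. The course of Igfbp4 was like those of Stim2 (0.935) and March8 (0.935), and Igfbp5 was most like Pik3ip1 (0.980), Ppp1r26 (0.977) and Rnf167 (0.973). Pik3ip1 had the E12.5 peak too, at 4.50, 5.99, 13.5 and 9.64 CPM. Igfbp6 was most like Lgals9 (0.983), Stac3 (0.980) and Dchs2 (0.978). Igfbp7 was most like Pkp1 (0.994), Zfp750 (0.993) and Emp1 (0.993), and Emp1 measured 41.0, 136, 175 and 499 CPM.

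Around the 9 genes, 61 of 65 listed pathway genes were tested. Of these, 17 were higher and 8 lower at E11.5 against E10.5, 24 and 12 at E12.5 against E11.5, and 27 and 6 at E14.5 against E12.5. Their median log2 fold changes were 0.06, 0.05 and 0.24. Beside these and the list counts that follow stand the shares of all tested genes: 12.2% higher and 12.9% lower at E11.5 against E10.5, 27.1% and 22.2% at E12.5 against E11.5, and 23.0% and 24.0% at E14.5 against E12.5.

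Igf2, the other Igf ligand, rose at the last 2 steps. Its libraries held 35.2, 24.7 and 52.2 CPM at E10.5, 46.8, 40.7 and 38.8 CPM at E11.5, 91.7, 114 and 226 CPM at E12.5, and 264, 265 and 260.4 CPM at E14.5. The log2 fold change was 1.54 at E12.5 over E11.5 (SE 0.26, adjusted p = 4.25e-04) and 0.82 at E14.5 over E12.5 (SE 0.25, adjusted p = 0.0165). Igf2 thus rose at the E12.5 step, at which Igf1 fell. Its level is uncertain, since 62.8% of its exon bases are shared with a readthrough gene annotated over it, Gm49394, which had 0 counts in every library. Igf2r, which takes Igf2 up for degradation, measured 637 ± 60.4 CPM at E14.5 against 225 ± 37.8 CPM at E12.5 (log2 fold change 1.43, SE 0.12, adjusted p = 1.65e-06) and was not called at the earlier steps. Both insulin genes were too low to test.

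Of 10 proteases that cut Igfbp proteins and inhibitors of such proteases, 3 were higher and 3 lower at E11.5 against E10.5. At E12.5 against E11.5, 7 were higher, none lower and 3 not called, where 27.1% of all genes were higher. At E14.5 against E12.5, 9 were higher and none lower, where 23.0% of all genes were higher. The median log2 fold changes were 0.19, 0.72 and 0.90. Htra1, a secreted serine protease, measured 50.2 ± 5.86 CPM at E14.5 against 6.16 ± 0.471 CPM at E12.5 (log2 fold change 2.95, SE 0.16, adjusted p = 3.87e-08). Pappa2, which cuts Igfbp3 and Igfbp5, measured 46.1 ± 6.06 CPM at E14.5 against 11.6 ± 2.55 CPM at E12.5 (log2 fold change 1.92, SE 0.16, adjusted p = 1.35e-06). Htra3 was higher at both of these steps (log2 fold changes 2.25 and 1.62) after a fall at E11.5 (-1.09, adjusted p = 0.00973). Pappa, the Igfbp4 protease, measured 4.73, 4.15, 10.7 and 18.0 CPM over the stages, and its inhibitor Stc2 1.95, 1.04, 2.83 and 8.77 CPM.

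Of 10 other proteins with an Igfbp domain or in complexes with Igfbps, 4 were higher and 3 lower at E11.5 against E10.5, 6 and 2 at E12.5 against E11.5, and 6 and 1 at E14.5 against E12.5, where 23.0% of all genes were higher and 24.0% lower. Kazald1, a secreted Igfbp-domain protein, measured 0.387, 1.04, 7.10 and 21.3 CPM over the stages and rose at all 3 steps. So did Ccn4, a matricellular protein, at 5.50, 10.1, 51.7 and 110.0 CPM (log2 fold change 2.13 at E12.5 over E11.5, SE 0.13, adjusted p = 3.26e-07). Ccn2 fell at E11.5 to 2.51 ± 0.327 CPM, against 7.48 ± 0.804 CPM at E10.5, and rose at E12.5 to 13.1 ± 2.27 CPM, against 2.51 ± 0.327 CPM at E11.5. Igfals, the partner of Igfbp3 in the serum complex, averaged 0.0323 to 0.492 CPM over the stages.

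**Figure D5:**
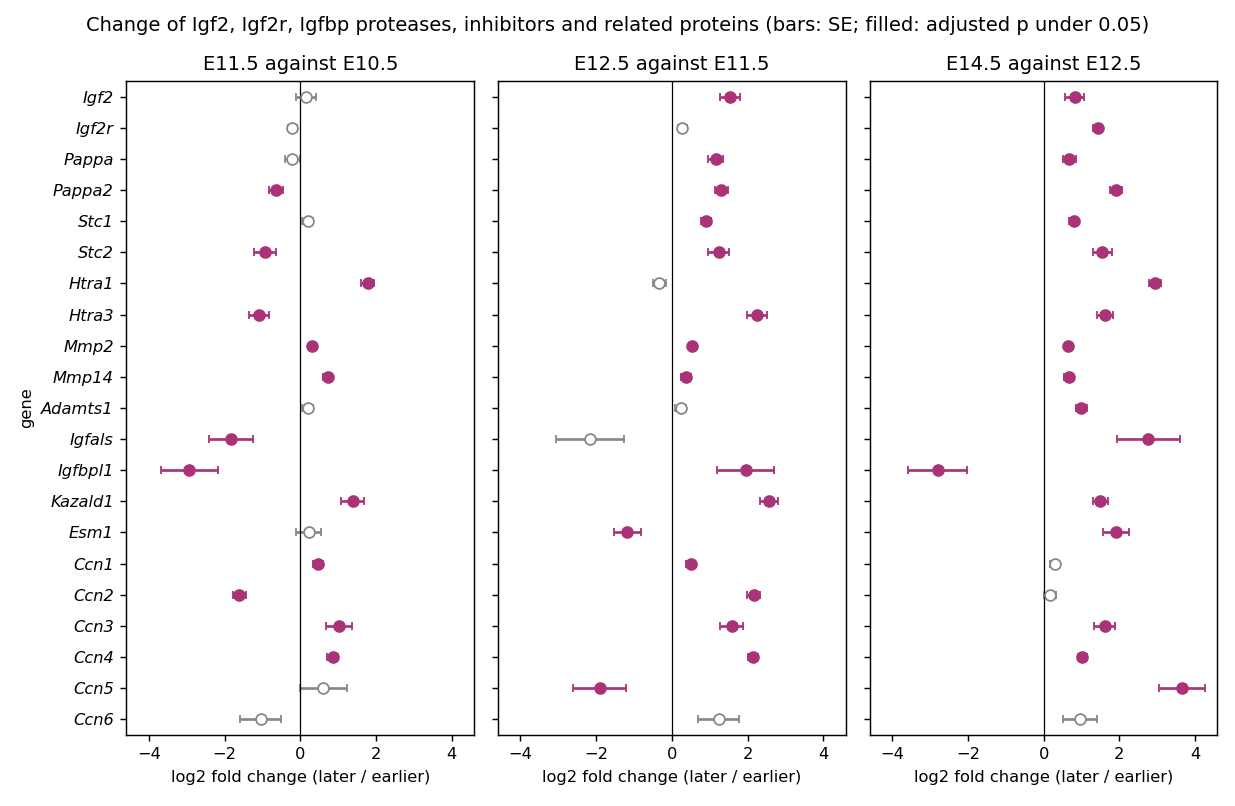
Log2 fold changes, later over earlier stage, with SE bars, of Igf2, Igf2r, 9 proteases and inhibitors (Pappa to Adamts1) and the 10 other Igfbp-domain or complex proteins (Igfals to Ccn6) at the 3 steps. Filled points have an adjusted p under 0.05, and at E14.5 against E12.5 all filled points but that of Igfbpl1 lie to the right of 0.

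Among genes that act inside the cell, calls went in both directions. Of 11 insulin receptor family genes and adaptors, 4 were higher and 1 lower at E11.5 against E10.5, 4 and 1 at E12.5 against E11.5, and 1 and 1 at E14.5 against E12.5. The 4 of 11 higher at E12.5 lie near the 27.1% of all genes. Irs1, an adaptor of the receptor, was higher at E11.5 (48.1 ± 5.22 CPM at E11.5 against 28.4 ± 6.43 CPM at E10.5, adjusted p = 0.00616). Irs2 was higher at E11.5 than at E10.5 (log2 fold change 0.48) and lower at each step after it (-0.49 and -0.31). Grb14, another adaptor, was higher at the first 2 steps (0.68 and 0.44). Grb10, an imprinted adaptor that dampens the receptors, stood at 1459 to 1685 CPM on average and was not called at any of the 3 steps.

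Of 23 genes of the PI3K, Akt and mTOR arm, 4 were higher and 1 lower at E11.5 against E10.5, 3 and 8 at E12.5 against E11.5, and 5 and 3 at E14.5 against E12.5. The 5 of 23 higher at E14.5 lie near the 23.0% of all genes. Deptor, an inhibitor of mTOR, rose at each step and measured 2.69, 5.31, 10.3 and 23.9 CPM over the stages. Pik3r3, a regulatory subunit of PI3K, was higher at E11.5 (log2 fold change 0.44) and fell at both later steps (-0.51 and -1.02), to 38.3 ± 2.61 CPM at E14.5 against 73.4 ± 8.82 CPM at E12.5. Eif4ebp1, a translation repressor switched off by mTOR, fell at E11.5 to 39.1 ± 1.60 CPM, against 68.2 ± 7.21 CPM at E10.5 (log2 fold change -0.84, adjusted p = 0.00186).

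On the growth hormone axis, the pituitary route to Igf1 after birth, 5 of 7 genes were tested, with 2 higher and none lower at E11.5, 3 and 1 at E12.5, and 4 and 1 at E14.5, each against the stage before. Ghr, the growth hormone receptor, measured 17.3, 33.9, 76.3 and 109 CPM over the stages and rose at each step (log2 fold changes 0.95, 0.96 and 0.44). Socs2, a feedback inhibitor of the receptor, was higher at E11.5 (0.89, adjusted p = 9.36e-04) and lower at E14.5 (-0.56, adjusted p = 0.00820). Stat5a, a factor that carries its signal, was higher at E12.5 (0.63, adjusted p = 0.0129) and at E14.5 (1.02, adjusted p = 4.43e-04). Ghr thus rose at E12.5 over E11.5, at the step where Igf1 fell.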

How the data were processed

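RNA from 12 maxillary prominence samples, 3 at each of 4 stages, was made into poly-T selected libraries per the labels' protocols, with a kit that leaves strand unmarked. The authors deposited raw counts, 1 whole number for each of 53801 Ensembl genes in a library. FastQC, STAR 2.7.3a, HTSeq 0.12.4 and mm10 are named in the submitters' processing notes; annotation release and strand setting: not given in the sources used here. At the end, 5 entries that name no gene, 14.3% to 18.6% of listed alignments, entered neither library sizes nor tests. Symbols came from GENCODE M21 for mm10, where 53706 identifiers matched and 95 did not, and promoters from RefSeq tables of GRCm38.p6.

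Counts were fitted in R 4.3.3 with edgeR 4.0.16: filterByExpr (minimum count 10), TMM, 1 mean per stage over all 12 libraries (8 residual degrees of freedom, biological coefficient of variation 0.142), quasi-likelihood tests, Benjamini-Hochberg adjustment over 18365 genes and a threshold of 0.05. An SE is the log2 fold change over the square root of F. The fit was tested on simulated data in which few genes changed, and at E11.5 alone. That test does not cover scaling where most genes differ among the stages. CPM used all counts in genes, TPM the merged exon length, and correlations TMM-scaled log2 CPM with a prior count of 2. Reads carry no molecular identifiers, so a floor of 3 counts covers counting error only. No 2 libraries of a stage agreed within sampling noise (chi-square per degree of freedom at least 4.69). The title of E14.5 replicate 1 names 2 parts, used here as 1 library.

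All 9 genes are named, with up to 3 genes of most similar course for each (some items are not reported here). From each pathway list, up to 3 called genes with the largest change at a step and at least 5 CPM in the higher stage were taken. Outside that rule, Pappa, Stc2, Igfals, Igfbpl1, Grb10, Kdr, Krt5, Krt8, Col1a1, Runx2, Sp7, Afp, Polr2b and Gm49394 were named after their values were seen. Members and lists were chosen with earlier results of these data known. Alternatives were DESeq2 1.42.0 (test, and its size factors), limma-voom (limma 3.58.1), other filters, the compared stages alone, haemoglobin and mitochondrial genes left out, the share of outside alignments as a covariate, replicate number as a block and each library left out. Scaling by library totals was added after seeing the data.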

Additional observations from a re-analysis of the deposited data

How the results depend on the processing

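No called value changed direction under any alternative run. Log2 fold changes that were not called did in 8 cases: Igf1r without TMM at E14.5 against E11.5 (0.15) and E10.5 (0.23) and with the share of outside alignments as a covariate at E12.5 against E11.5 (-0.15), Igfbp4 at E12.5 against E10.5 with that covariate (-0.03) and in 2 fits that left out 1 library (-0.10 to -0.01), and Igfbp6 at E11.5 against E10.5 in 2 such fits (0.14 to 0.29). DESeq2, limma-voom, the size factors of DESeq2, no filter on low counts and leaving out haemoglobin and mitochondrial genes changed no call of the 9 genes. A filter of at least 1 CPM in 3 libraries removed Igfbp1 from the test and changed no other call of the 9 genes, leaving 4 higher at E12.5 against E11.5, 6 higher at E14.5 against E11.5 and against E10.5, and 7 that differed among the stages. Same-numbered libraries of different stages deviated together with r of -0.12 to 0.18, over 0.1 in 4 of 18 pairs, against -0.23 to 0.23 for other pairs. On average, 8 of 12 libraries correlated best with their own number. These values do not settle whether the replicate numbers in the labels pair the libraries. With the replicate number as a block, 1 call changed, the joint test of Igf1r (adjusted p = 0.0313).

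The counts of called genes moved as follows. With the share of outside alignments as a covariate, which nearly separates the 2 earlier from the 2 later stages, E11.5 against E10.5 had 0 lower, E12.5 against E11.5 had 1 higher and 0 lower, E12.5 against E10.5 had 3 higher and 0 lower, and E14.5 against E11.5 and against E10.5 each had 4 higher and 0 lower. E14.5 against E12.5 had 4 higher with it. Over all genes that covariate left 406 higher and 287 lower at E12.5 against E11.5, where 4968 and 4079 were called without it. The share and the stage cannot be told apart well in these libraries. Without TMM, 0 were lower at E11.5 against E10.5, at E12.5 against E10.5 and at E14.5 against E10.5, and 1 at E14.5 against E12.5. Higher without TMM were 7 at E12.5 against E11.5 and 5 at E12.5 against E10.5. Fitted alone, the compared stages gave 1 lower at E12.5 against E10.5 and 2 at E14.5 against E11.5. They gave 3 higher at E11.5 against E10.5 and 4 at E14.5 against E12.5. Over all genes that fit left 3554 lower at E12.5 against E10.5 and 6501 at E14.5 against E11.5. Higher over all genes were 2386 at E11.5 against E10.5 and 4122 at E14.5 against E12.5. Leaving out 1 library gave 0 to 1 lower at E11.5 against E10.5, 0 to 3 at E14.5 against E12.5 and 1 to 2 at E12.5 against E10.5. It gave 2 to 3 higher at E11.5 against E10.5, 4 to 5 at E12.5 against E11.5 and at E14.5 against E12.5, and 5 to 7 at E14.5 against E10.5. Over all genes it gave 1486 to 2478 lower at E11.5 against E10.5 and 3270 to 4707 at E14.5 against E12.5. Higher over all genes were 1659 to 2646 and 3568 to 4518 at these steps. The cause of these changes was not tested.

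Without TMM the all-gene split was 6905 higher and 1875 lower at E12.5 against E11.5 (4968 and 4079 with it), 7295 and 2565 at E12.5 against E10.5 (5147 and 4677), 8816 and 3900 at E14.5 against E11.5 (6829 and 6012) and 8828 and 4114 at E14.5 against E10.5 (6721 and 6211). TMM-scaled library sizes moved 12 of 36 levels in CPM by more than 1 SD, and the longest transcript's length 13 of 36 levels in TPM. Depth limits Igfbp1 and Igfbp6 before E14.5, at 0 to 21 counts a library.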
